A study of Mus musculus with 12 samples.

Results

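The genes described here are Mdn1 and 48 further genes whose products build ribosomes in the nucleolus, 49 of the 35944 mouse genes to which the deposited transcripts could be assigned. They were named as a list, and Mdn1 leads it because it was selected on these data, as the gene called between tumours that received miR-142-5p-EVs and control tumours. The contrast between miR-142-5p and ctrl is therefore given for Mdn1 as a description with no test. Each of the 49 genes passed the filter on low counts, which left 15459 genes. The libraries were made from polyadenylated RNA of 12 tumours grown from 4T1, a mouse mammary carcinoma cell line. Female BALB/c mice of 6 to 8 weeks received 100000 cells under the skin of the right flank. From 5 days later, extracellular vesicles (EVs) of the mouse endothelial line MS-1, electroporated with a miRNA mimic, were injected beside the tumour at 3 µg every 2 days, and RNA was taken on day 21. The 4 groups of 3 tumours differed in the mimic: the ctrl group received the worm miRNA cel-miR-67, and the others miR-142-5p, the mimic of miR-183-5p or that of miR-222-3p. Values for these 3 mimics are given in this order where no name stands beside them. All mice, the ctrl mice included, thus carried the same tumour line and received loaded EVs, and no group without EVs was analysed here.

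Ribosomes are assembled in the nucleolus. RNA polymerase I transcribes the ribosomal RNA precursor, and the small-subunit processome folds and cuts it. Box C/D and box H/ACA small nucleolar ribonucleoproteins (snoRNPs) modify its nucleotides. Separate sets of factors then mature the large (60S) and small (40S) subunits. Mdn1, called Rea1 in yeast, is a very large AAA-type ATPase related to dynein that pulls assembly factors off the maturing large subunit. It engages Wdr12 and Nle1, which carry the domain it grips. In tumours these genes are widely known as growth-related and as targets of the transcription factor Myc.

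The sequences of the 3 mouse miRNAs are shown because a miRNA pairs with its targets mainly through the seed, bases 2 to 8, written in capitals. They were taken from RefSeq on GRCm38.p6, where the miRNA labelled miR-142-5p is listed as mmu-miR-142a-5p.
mmu-miR-142a-5p: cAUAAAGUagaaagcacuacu
mmu-miR-183-5p: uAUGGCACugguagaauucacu
mmu-miR-222-3p: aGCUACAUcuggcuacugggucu
The 3 seeds differ from one another. A seed match was counted in the 3′ untranslated region (UTR) of each gene's most abundant coding transcript, on the transcript strand, as either the complement of bases 2 to 8 or the complement of bases 2 to 7 followed by A. These were ACTTTAT and CTTTATA for miR-142-5p, GTGCCAT and TGCCATA for miR-183-5p, and ATGTAGC and TGTAGCA for miR-222-3p. Overlapping forms were counted as 1 site.

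Mdn1 had no match to the miR-142-5p seed in the 1068 nucleotides of its 3′ UTR and none to the miR-222-3p seed. It had 1 match to the miR-183-5p seed (GRCm38, chr4:32774701-32774724, plus strand, 3′ UTR of the last exon), shown here with the match in capitals.
Mdn1, miR-183-5p match: ttcttgggcTGCCATAgcccctgc
Among the 49 genes, 8 held a miR-142-5p match (16.3%), against 21.2% of 14592 tested genes with a 3′ UTR. The 8 were Brix1, Ddx18, Ddx21, Ebna1bp2, Noc3l, Nvl, Urb1 and Utp14a. The 3′ UTRs of the list were short, with a median of 446 nucleotides against 962 over the 14592 genes, and per 1000 nucleotides the list held 0.202 miR-142-5p matches against 0.197. A miR-183-5p match was found in 10 of the 49 genes (20.4%, against 14.7%), or 0.292 against 0.117 per 1000 nucleotides. Noc3l, a factor of early large-subunit assembly, was the only gene of the 49 with a full 8-base match to any of the 3 miRNAs, and it held 2 to miR-183-5p.
Noc3l, upstream miR-183-5p match (chr19:38789297-38789320, minus strand): ctgcagacGTGCCATAgtctagtc
Noc3l, downstream miR-183-5p match (chr19:38788459-38788482, minus strand): tttccattGTGCCATAggaatatc
A miR-222-3p match was found in 5 of the 49 genes (10.2%, against 16.0%), or 0.180 against 0.135 per 1000 nucleotides. The 8 genes with a miR-142-5p match had a median log2 fold change of -0.20 in miR-142-5p against ctrl tumours, and the 40 other genes without one, Mdn1 left aside, had -0.18. For miR-183-5p the medians were -0.13 in the 9 genes with a match other than Mdn1 and -0.13 in the 39 without, and for miR-222-3p they were -0.14 in 5 and -0.03 in 43. A match is a description of the letters in the annotated 3′ UTR and not evidence of binding.

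Several libraries stood apart in ways that touch the results. Estimated reads per library ranged from 20285968 to 27021401. Carcinoma epithelium markers (7 genes, among them Epcam and Krt8) summed to between 1668 and 2590 TPM (transcript abundance per length, scaled to a common total) in the 12 tumours, and macrophage markers to between 991 and 2196 TPM. The B cell markers (5 of 5 detected) summed to 445 TPM in miR-142-5p tumour 3 and to at most 2.84 in any other tumour, and the T cell markers (7 of 7 detected) to 270 TPM there against 36.4 to 98.9 elsewhere. The skeletal muscle markers (6 of 6 detected) summed to 344 TPM in miR-183-5p tumour 3 and to at most 25.9 elsewhere. The gene model Gm28661 read 821 to 4257 TPM in 8 libraries and 0.0782 to 38.8 TPM in the other 4, which were the 3 miR-222-3p libraries and miR-183-5p tumour 3. For miR-222-3p this library set and the group cannot be told apart. The counts of genes below ctrl are given with and without miR-142-5p tumour 3 and miR-183-5p tumour 3. In whole tumours, fewer cells of a type and less RNA per cell cannot be told apart.

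Mdn1 (chromosome 4, 32657119 to 32775217, plus strand, GRCm38) had a mean level of 11.5 TPM over the 12 tumours, below those of all but 3 of the 49 genes. Its gene-level normalised count, in which reads are divided by the mean effective transcript length of the gene, was 1249, 1291 and 1465 in the ctrl tumours, against 843, 826 and 988 with miR-142-5p. With miR-183-5p it was 1135, 1121 and 1008, and with miR-222-3p it was 1096, 1236 and 1230. The 3 miR-142-5p tumours lay below the 9 others, and each ctrl tumour lay above all 9 tumours that received another mimic. The group means were 1335 ± 115 (SD, n = 3) in ctrl and 886.0 ± 89.1, 1088 ± 69.5 and 1187 ± 79.0 with the 3 mimics. The log2 fold change between miR-142-5p and ctrl, the contrast that chose Mdn1, was -0.59 (SE 0.12), and Mdn1 was 1 gene of 15413 with an adjusted p under 0.05 there (0.00649% of genes tested). That call was lost with edgeR, without the length correction described below, and when ctrl tumour 1, 2 or 3 or miR-142-5p tumour 2 was left out, each of which left 0 of the 49 genes called.

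Every contrast with ctrl or with miR-142-5p tumours reuses the values that chose Mdn1, and these are given with no test. Against ctrl, Mdn1 had a log2 fold change of -0.30 with miR-183-5p and of -0.17 with miR-222-3p (SE 0.12 each). The miR-142-5p tumours stood at -0.29 against miR-183-5p and at -0.42 against miR-222-3p (SE 0.12 each). The miR-183-5p and miR-222-3p tumours were not in the contrast that chose Mdn1. They did share its fit over 12 libraries, and so entered the dispersion behind that call. Between these 2 groups the log2 fold change was -0.12 (SE 0.12, DESeq2 adjusted p = 1.0), and the groups overlapped. The standard error leaves a difference of this size undecided with 3 tumours per group.

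The gene-level value of Mdn1 combined very unequal transcripts. Mdn1-201, the full-length coding transcript of 17970 nucleotides and 102 exons, held between 82.5% and 95.4% of the gene's estimated reads in each tumour. Mdn1-204, a non-coding processed transcript of 546 nucleotides, held between 14.6 and 58.5 estimated reads, or 1.15% (95% Wilson interval 0.752 to 1.83) to 5.97% (4.55 to 7.86) of the gene. Because TPM divides reads by length, Mdn1-204 nevertheless had the highest mean level of the 11 annotated Mdn1 transcripts, at 5.97 TPM against 3.63 for Mdn1-201, and it made up between 29.3% and 70.4% of the gene's TPM. The reads and the level of the gene were thus carried by different transcripts.

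Mdn1-204 consists of a part of exon 33 of Mdn1-201 (32704635 to 32704737), a part of exon 34 (32707421 to 32707489) and a stretch of 374 nucleotides within the last exon (32774825 to 32775198) that lies beyond the end of the coding sequence at 32774139, in the 3′ UTR. Of its 516 words of 31 nucleotides, 487 also occur in Mdn1-201 and 29 do not. Those that do not occur there span the join of its exons 2 and 3, whose ends both lie inside exons of Mdn1-201 and leave out 67335 nucleotides. The join is shown because it is what sets Mdn1-204 apart; the bases of exon 3 are in capitals.
Mdn1-204, join of exons 2 and 3 (chromosome 4, 32707489 to 32774825, plus strand): gtttggacggaagtGAGCGAACGGATGC
Reads from the shared words were divided between the transcripts by estimation.

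The 2 transcripts did not separate the groups alike. The estimated reads of Mdn1-201 were 921, 1306 and 1609 in ctrl tumours and 489, 981 and 1497 in miR-142-5p tumours, while those of the other mimics held 1173, 698 and 794 (miR-183-5p) and 1324, 1123 and 864 (miR-222-3p). Per length, Mdn1-201 stood at 3.33, 4.83 and 6.09 TPM in ctrl tumours and at 1.71, 3.66 and 4.99 TPM in miR-142-5p tumours, so these groups overlapped. The miR-183-5p tumours held 3.42, 2.19 and 2.66 TPM and the miR-222-3p tumours 4.43, 3.82 and 2.43 TPM of it. Mdn1-204 did separate the groups, with 37.7, 35.7 and 36.0 estimated reads in ctrl tumours against 27.1, 14.6 and 18.6 in miR-142-5p tumours, or 6.93 ± 0.114 TPM (SD, n = 3) against 3.62 ± 1.12 TPM. In miR-183-5p tumours it had 42.6, 47.9 and 36.2 reads and in miR-222-3p tumours 25.8, 37.0 and 58.5 reads. Read counts are not corrected for library size, and in TPM these groups stood at 6.87 ± 0.728 and 6.48 ± 1.99 (SD, n = 3). The short transcript was thus lower in each miR-142-5p tumour than in each ctrl tumour, and the full-length one was not.

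**Figure D1:**
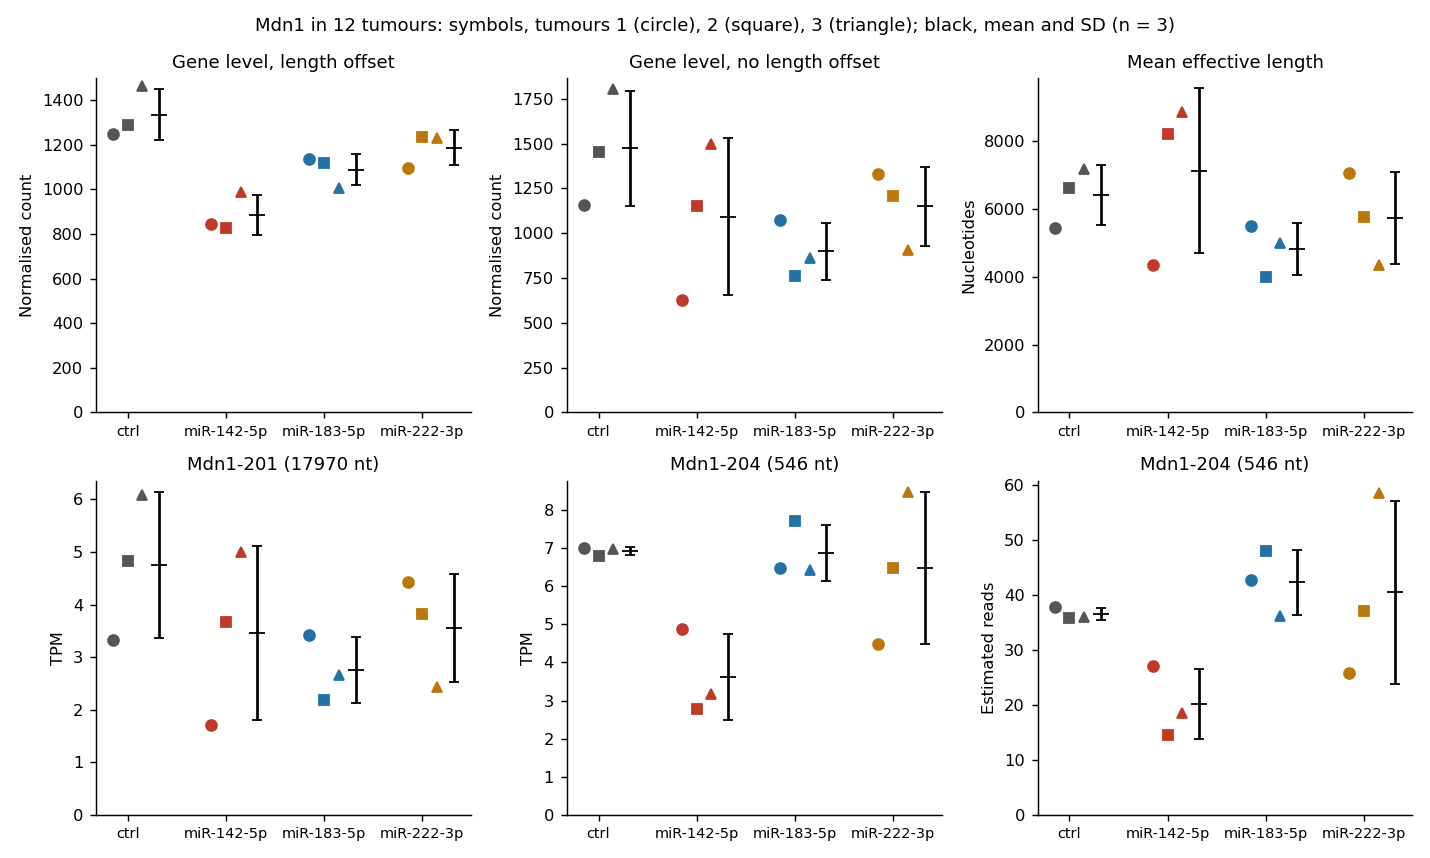
Mdn1 in the 12 tumours by group (x axis): gene-level normalised count with and without the length offset, mean effective length in nucleotides, TPM of the full-length Mdn1-201 and of the short Mdn1-204, and estimated reads of Mdn1-204. Symbols are tumours and black bars the mean and SD of 3 tumours. The ctrl and miR-142-5p tumours are apart for the gene-level count with the offset and for Mdn1-204, and overlap for the count without the offset and for Mdn1-201.

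The mean effective length of Mdn1, weighted by TPM, moved with this mixture. It was 5453, 6608 and 7185 nucleotides in ctrl tumours, 4348, 8204 and 8861 in miR-142-5p tumours. With miR-183-5p it was 5506, 3998 and 5000, and with miR-222-3p 7071, 5774 and 4345. The highest value was 2.22 times the lowest. This was the widest range of the 49 genes, followed by Utp20 at 1.68, and only 85 of 11542 genes with a mean normalised count of at least 100 (0.736%) had as wide a range. Without the length correction, the normalised counts of Mdn1 were 1160, 1456 and 1805 in ctrl and 626, 1155 and 1497 in miR-142-5p tumours, and the groups overlapped. The log2 fold change against ctrl was then -0.43, -0.71 and -0.36 for the 3 mimics (SE 0.28 each). With coding transcripts alone the values were -0.43, -0.77 and -0.37 (SE 0.30 each). Without the correction the group lowest against ctrl was thus miR-183-5p and not miR-142-5p, and Mdn1 was not called in any contrast. For the 48 other genes, the fold change against ctrl differed between the fits with and without the correction by a median of 0.03, 0.04 and 0.03 log2 units for the 3 mimics. The largest differences were 0.18, 0.21 and 0.26. Single genes could thus change sign, as Nle1 did for miR-222-3p, from 0.06 to -0.20 without the correction.

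The levels of the 49 genes spanned from a mean of 4.33 TPM to 1022 TPM. The nucleolar chaperone Npm1 was highest at 1022 TPM, followed by nucleolin (Ncl, 355 TPM), the box C/D core proteins Nop58 (204 TPM) and fibrillarin (Fbl, 179 TPM), the methyltransferase of that particle, and Nop56 (138 TPM). The lowest were Urb1 (4.33 TPM), Rrp12 (5.47 TPM), Noc3l (7.82 TPM), Mdn1 (11.5 TPM) and Urb2 (12.0 TPM). The spread over the 12 tumours, as the coefficient of variation of TPM, ran from 6.59% in Npm1 to 22.9% in Urb1, and Mdn1 stood at 18.6%. In most of the genes the reads came mainly from coding transcripts, with a share of 94.6% in Mdn1, but the share was 33.7% in Ncl, 47.1% in Heatr1 and 47.5% in Polr1a.

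Across the list, differences from ctrl were small and mostly negative. In miR-142-5p tumours, 46 of the 48 genes other than Mdn1 had a log2 fold change below 0, with a median of -0.18 against -0.005 over all genes tested, of which 51.2% were below 0. In miR-183-5p tumours the number was 43 of 48 with a median of -0.13 (all genes -0.01), and in miR-222-3p tumours 32 of 48 with a median of -0.03 (all genes -0.008). The 3 comparisons use the same ctrl tumours. Apart from Mdn1, 0 of the 48 genes passed an adjusted p of 0.05 against ctrl in any group with DESeq2, and 0 of 49 passed with edgeR. The share of genes called over the whole table was 0% in the miR-183-5p and 0.026% in the miR-222-3p contrast. At an unadjusted p under 0.05, 7 of the 48 were lower in miR-142-5p (background 3.56% of genes in either direction), 3 in miR-183-5p (3.22%) and 2 in miR-222-3p (2.29%), and 0 were higher in any of them. Leaving out each tumour in turn, these counts ranged from 3 (without ctrl tumour 2 or miR-142-5p tumour 1) to 12 (without miR-142-5p tumour 3), from 2 (without ctrl tumour 2 or miR-183-5p tumour 2) to 6 (without miR-183-5p tumour 3, where 1.79% of all genes had such a p) and from 0 (without miR-222-3p tumour 2 or 3) to 4 (without ctrl tumour 3). The median standard error of a gene of the list was 0.14 on the log2 scale, so single differences of the sizes seen could not be resolved.

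Whole groups were also set side by side. In 13 of the 48 genes all 3 miR-142-5p tumours lay below all 3 ctrl tumours, where 2.94% of genes tested did so, and in 0 of 48 they lay above, where 3.12% did. For miR-183-5p, 6 of 48 lay below against 4.75% of genes, and 0 above against 4.42%. For miR-222-3p, 3 of 48 lay below against 2.56%, and 0 above against 2.94%. Nothing is read from the miR-142-5p counts, since that contrast chose the list's leading gene. Without miR-142-5p tumour 3, the library with B cell markers, 47 of 48 genes were below 0 with a median of -0.21, and 23 of the other genes lay wholly below ctrl (7.51% of all genes). Without miR-183-5p tumour 3, the library with muscle markers, 44 of 48 were below 0 with a median of -0.18, and 15 lay wholly below (7.89% of all genes). Leaving out each tumour in turn, the number below 0 ranged from 42 to 48, from 38 to 44 and from 26 to 36 for the 3 mimics.

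**Figure D2:**
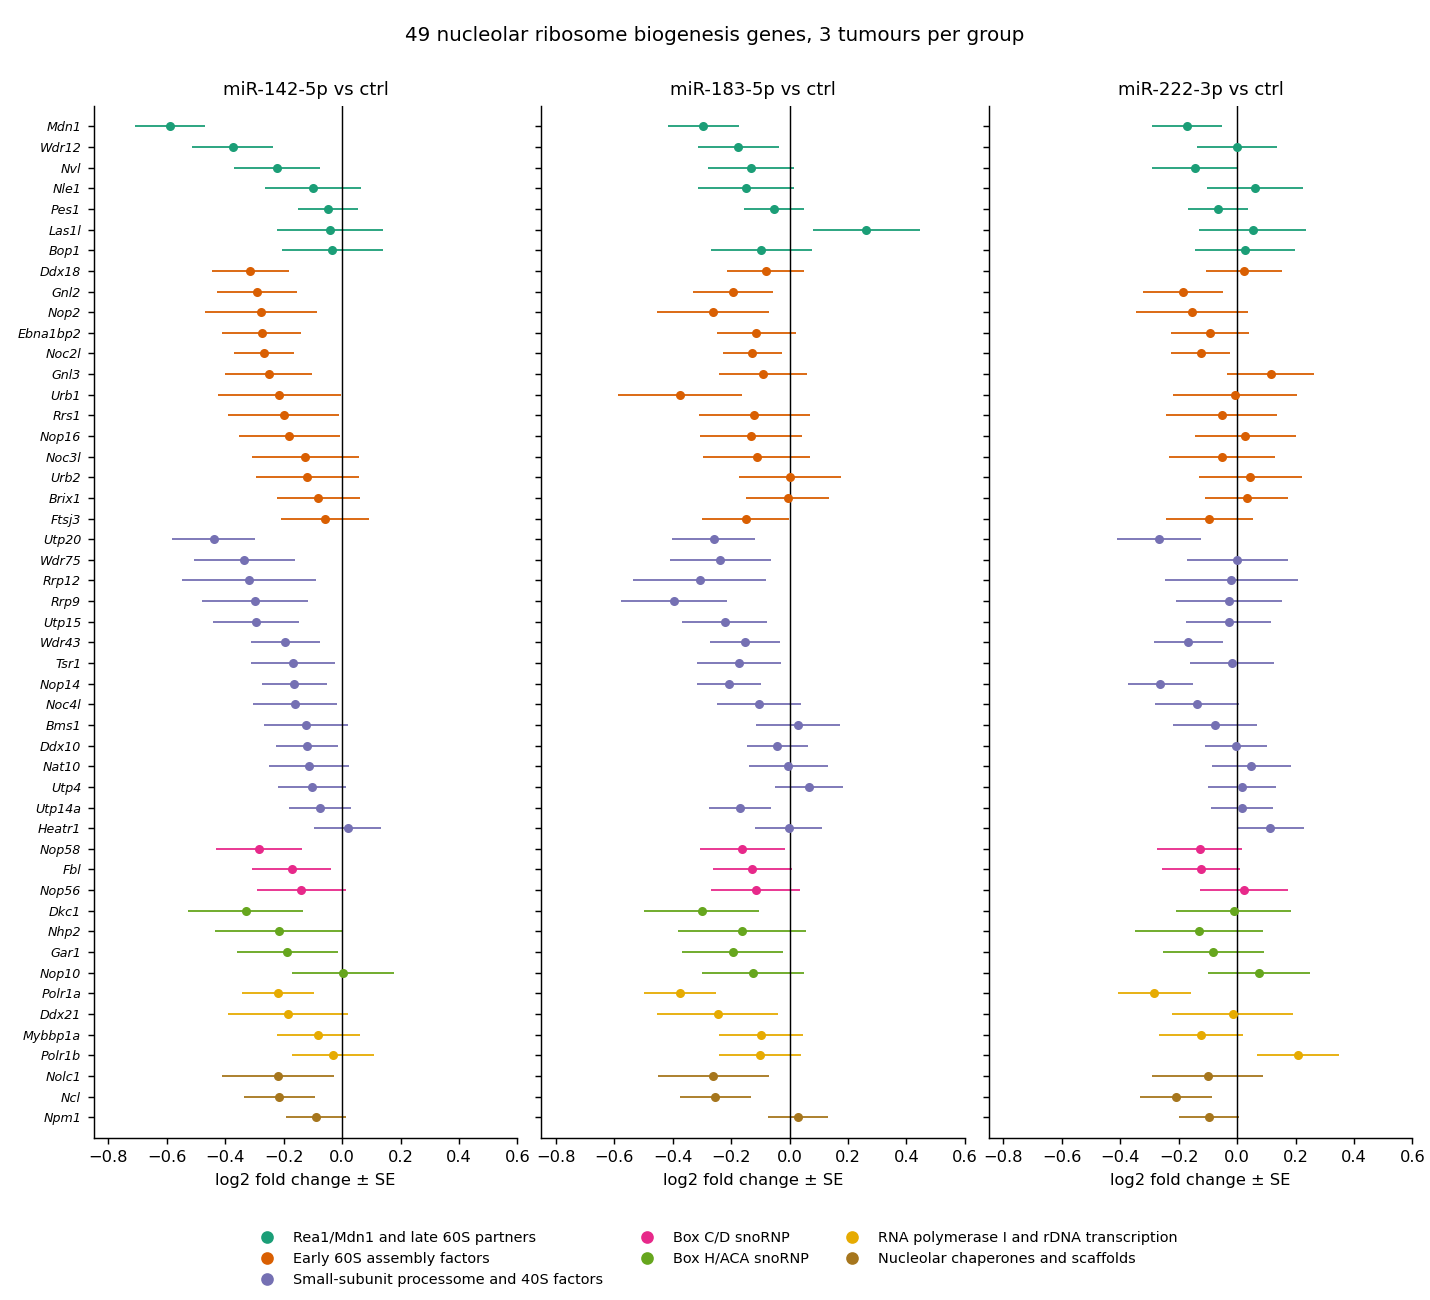
Log2 fold change against ctrl with its standard error (x axis) for each of the 49 genes (y axis), in blocks coloured by role, for the 3 mimics. Mdn1 lies farthest left for miR-142-5p at -0.59, and 46, 43 and 32 of the 48 other genes lie left of 0 for the 3 mimics.

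The proteins that work with Mdn1 on the large subunit had values nearer to 0 than Mdn1 in miR-142-5p tumours. Wdr12, a part of the PeBoW complex and a substrate of Mdn1, was the nearest to it. Its normalised counts were 1068, 978 and 1045 in ctrl tumours against 693, 816 and 874 in miR-142-5p tumours. With miR-183-5p they were 1028, 782 and 926, and with miR-222-3p 1113, 1004 and 972. The miR-142-5p tumours lay below the ctrl tumours without overlap (log2 fold change -0.37, SE 0.14, DESeq2 adjusted p = 0.921). The other 2 PeBoW proteins, Pes1 and Bop1, had log2 fold changes of -0.05 (SE 0.10) and -0.03 (SE 0.17), and their groups overlapped. Nle1, the other substrate of Mdn1, held 338, 390 and 315 in ctrl and 317, 303 and 353 in miR-142-5p tumours (log2 fold change -0.10, SE 0.16). Nvl, an AAA ATPase that acts on pre-60S particles, had -0.22 (SE 0.15).

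Las1l, the endonuclease subunit that cuts the internal spacer of the precursor, went the other way in miR-183-5p tumours, at 2288, 2763 and 2769 against 1854, 2617 and 2047 in ctrl (log2 fold change 0.26, SE 0.18), with overlapping groups. It was the highest value of the list there and did not pass the test. Mdn1 docks on the particle with the Rix1 complex. The genes of this complex and of the wider rixosome were listed together as Pelp1, Tex10, Wdr18, Senp3 and Nol9, and their RNA was measured. Their log2 fold changes for miR-142-5p were 0.01 (SE 0.16), -0.04 (SE 0.11), -0.08 (SE 0.15), 0.08 (SE 0.16) and -0.08 (SE 0.17) in that order. Of the 5 genes, 0 passed the test in any contrast against ctrl, and their median was -0.04, -0.11 and -0.03 for the 3 mimics.

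Among the 13 early large-subunit assembly factors, all 13 had a value below 0 for miR-142-5p (median -0.21, from -0.31 to -0.06). With the other mimics 12 (median -0.12) and 8 (median -0.05) did. Over all genes tested, 51.2%, 52.7% and 52.0% were below 0 for the 3 mimics. Ddx18, an RNA helicase, stood at 1504, 1967 and 1576 in ctrl and at 1306, 1365 and 1388 in miR-142-5p tumours (log2 fold change -0.31, SE 0.13). Noc2l, which escorts the particle from the nucleolus, stood at 3059, 3124 and 2674 against 2432, 2341 and 2586 (log2 fold change -0.27, SE 0.10). The GTPase Gnl2 stood at 1672, 1652 and 1763 against 1312, 1401 and 1442 (log2 fold change -0.29, SE 0.14). In these 3 genes and in Gnl3 the miR-142-5p tumours lay below the ctrl tumours without overlap, and in none of them was the adjusted p under 0.05. These were 4 of the 13 genes, where 2.94% of all genes tested lay wholly below ctrl. Nothing is read from this count, since that contrast chose Mdn1. The scaffold protein Urb1 was among the lowest values for miR-183-5p, at 426, 337 and 472 against 442, 520 and 643 in ctrl (log2 fold change -0.38, SE 0.21), with overlap. Its log2 fold change there was -0.19 without the length correction and -0.19 with coding transcripts alone. Gnl3, or nucleostemin, had one of the highest values for miR-222-3p, at 2698, 2701 and 2164 against 2695, 2004 and 2287 in ctrl (log2 fold change 0.11, SE 0.15). This rise did not hold in other fits, at 0.03 without the length correction and -0.06 with coding transcripts alone.

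Among the 15 small-subunit factors, 14, 13 and 10 had a value below 0 for the 3 mimics (medians -0.16, -0.17 and -0.02). The shares over all genes tested were 51.2%, 52.7% and 52.0%. Utp20, a large helical-repeat protein of the processome, had the value farthest below 0 of the 48 genes for miR-142-5p. It stood at 1347, 1471 and 1090 in ctrl tumours, and 1063, 928 and 891 in miR-142-5p tumours. With miR-183-5p it stood at 1202, 996 and 1062, and with miR-222-3p at 1005, 1106 and 1132. The miR-142-5p tumours lay below the ctrl tumours (log2 fold change -0.44, SE 0.14, DESeq2 adjusted p = 0.685), and the other mimics overlapped with ctrl at -0.26 and -0.27 (SE 0.14 both). Rrp9, a protein of the U3 snoRNP, was lowest for miR-183-5p, at 350, 355 and 498 against 509, 566 and 503 in ctrl (log2 fold change -0.39, SE 0.18). Wdr75, of the subcomplex that joins the processome to polymerase I transcription, had -0.33 (SE 0.17) for miR-142-5p with overlapping groups.

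Further small-subunit factors covered a range of values. Heatr1, of the same subcomplex, stood at 1192, 1177 and 1001 in ctrl and 1024, 1138 and 1246 in miR-142-5p tumours (log2 fold change 0.02, SE 0.12). Utp4, also of that subcomplex, had 0.07 (SE 0.12) for miR-183-5p. Nop14, which recruits a methyltransferase to the processome, stood at 1163, 1005 and 1056 in miR-222-3p against 1411, 1198 and 1261 in ctrl tumours (log2 fold change -0.26, SE 0.11), without overlap and without passing the test.

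The snoRNP proteins had medians similar in size to that of the whole list for miR-142-5p and miR-183-5p. For miR-222-3p the list had a median of -0.03, and the median of the box C/D proteins lay farther below 0. Of these 3 proteins, 2 were below 0 there, with values from -0.13 to 0.02 and a median SE of 0.15. The 3 box C/D proteins had a median of -0.17, -0.13 and -0.12 for the 3 mimics, and the 4 box H/ACA proteins -0.20, -0.18 and -0.05. Nop58 stood at 3122, 3862 and 2799 in ctrl and 2622, 2702 and 2709 in miR-142-5p tumours, without overlap (log2 fold change -0.28, SE 0.15). Dkc1, the pseudouridine synthase, stood at 1299, 1706 and 1374 in ctrl and 972, 994 and 1518 in miR-142-5p tumours, with tumour 3 apart from tumours 1 and 2 (log2 fold change -0.33, SE 0.20). Nop10, the smallest box H/ACA protein, had 0.003 (SE 0.17) for miR-142-5p.

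For transcription of ribosomal DNA, the 2 large subunits of RNA polymerase I were among the named genes. Polr1a stood at 1775, 2006 and 1799 in ctrl tumours and at 1319, 1706 and 1766 in miR-142-5p tumours. With miR-183-5p it stood at 1495, 1402 and 1402, and with miR-222-3p at 1561, 1514 and 1511. All 9 tumours with a mimic other than ctrl lay below the 3 ctrl tumours, and the log2 fold changes were -0.22, -0.38 and -0.28 (SE 0.12 each), with adjusted p = 1.0 in each. Polr1b stood at 658, 617 and 553 in ctrl and at 763, 756 and 595 in miR-222-3p tumours (log2 fold change 0.21, SE 0.14), the highest value of the list there, with overlap. Polr1a and Mdn1 were the 2 genes of the list whose ctrl tumours lay above all 9 others. Nothing is read from this count, because the share of all genes that did so was not computed. Mdn1 was also chosen for its difference between ctrl and miR-142-5p. Of the chaperones, Ncl had -0.21, -0.25 and -0.21 (SE 0.12 each) for the 3 mimics, and Npm1 had -0.09, 0.03 and -0.10 (SE 0.10 each).

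**Figure D3:**
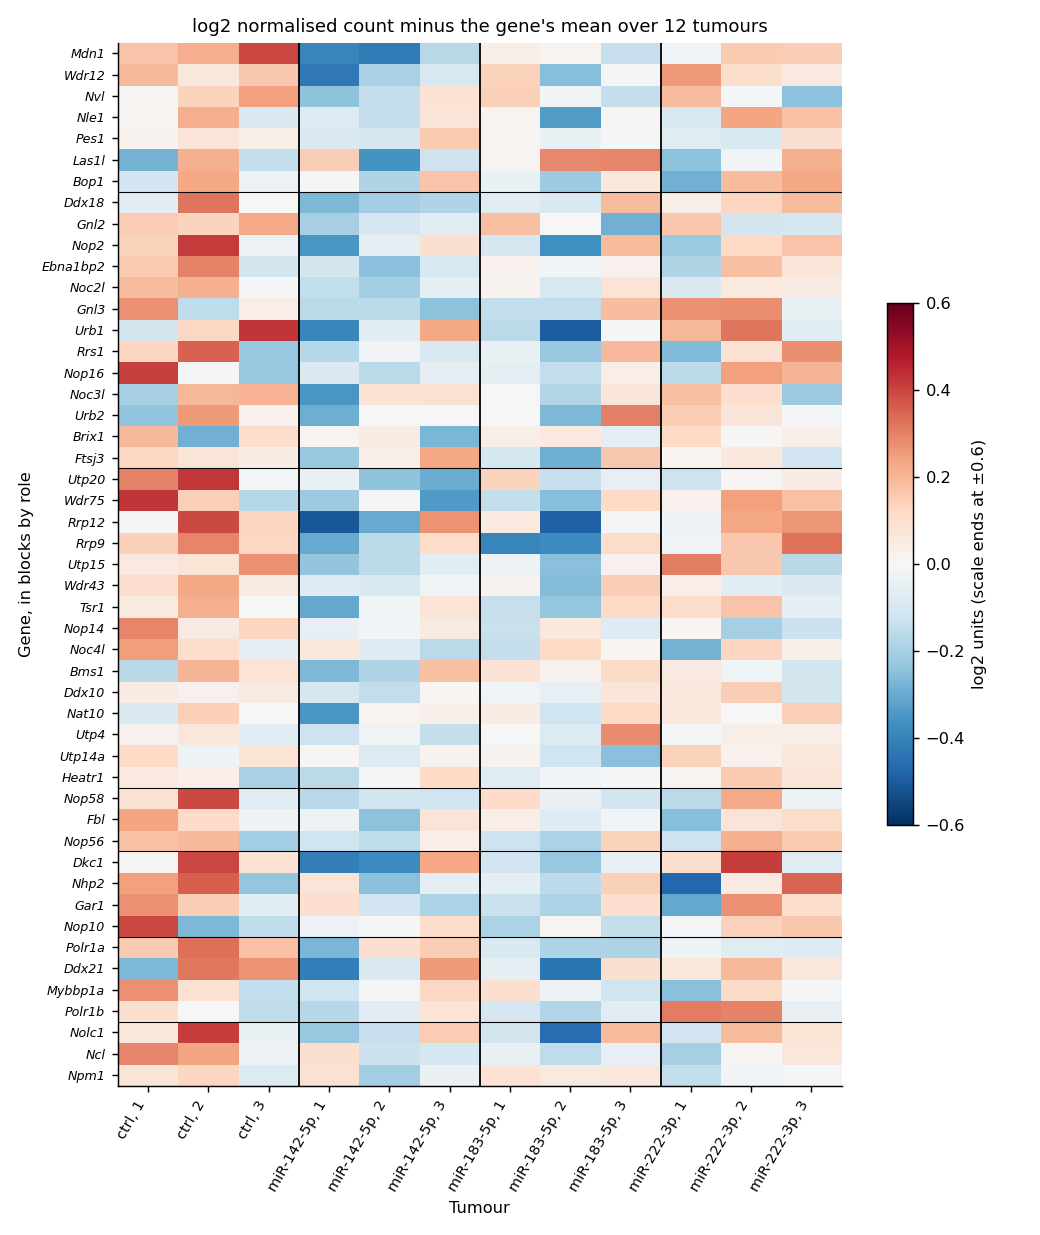
Log2 normalised count of the 49 genes (rows, in blocks by role) in the 12 tumours (columns), each as the difference from the gene's own mean in log2 units, with red above and blue below the mean and the colour scale ending at 0.6. Ctrl tumours 1 and 2 are mostly red and miR-142-5p tumours 1 and 2 and miR-183-5p tumour 2 mostly blue, and each group holds a tumour near the mean.

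The contrasts between mimics do not use the ctrl tumours. The miR-183-5p and miR-222-3p tumours entered the choice of Mdn1 only through the shared fit. Between them, 37 of the 48 other genes were lower in miR-183-5p (median log2 fold change -0.06, all genes -0.004). Of the 49 genes, 0 passed the adjusted threshold (0.0324% of all genes did). The number lower and the median were 30 and -0.02 without miR-183-5p tumour 2, and 37 and -0.13 without miR-183-5p tumour 3, and the median was -0.12 without miR-222-3p tumour 1. Without miR-183-5p tumour 3, these 2 groups and the library sets that differ in Gm28661 cannot be told apart. At an unadjusted p under 0.05, 2 of 48 were lower, Rrp9 (-0.37, SE 0.18) and Polr1b (-0.31, SE 0.14), against a background of 3.24%, and this count ranged from 0 (without miR-183-5p tumour 2 or miR-222-3p tumour 2) to 4 (without miR-183-5p tumour 3) over left-out tumours. Between miR-142-5p and miR-222-3p, 0 of the 48 genes passed (0.0389% of all genes), and 3 had an unadjusted p under 0.05 (3.59% of all genes), namely Wdr12, Ddx18 and Gnl3, all lower in miR-142-5p. Between miR-142-5p and miR-183-5p, 0 of the 48 passed (0.0519% of all genes), and 0 had an unadjusted p under 0.05 (7.95% of all genes).

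Whether the list followed Mdn1 from tumour to tumour was described by the Pearson correlation of each gene with Mdn1 over the 12 tumours, on log2 normalised counts. No p is given, because the tumours share groups, library preparation and normalisation, and because Mdn1 was chosen for its difference between ctrl and miR-142-5p, so that any gene lower in miR-142-5p than in ctrl tumours tends to a positive r with it. The 48 genes had a median r of 0.36, from 0.009 to 0.73, and 48 of 48 were above 0, whereas the median over all genes tested was 0.001 and 50.1% were above 0. Without the length correction the median r was 0.41 and 39 of 48 were above 0. The genes nearest to Mdn1 were Wdr12 (r = 0.73, rank 30 of 11333 protein-coding genes with a mean normalised count of at least 100), Noc2l (0.68), Dkc1 (0.63), Gnl2 (0.63) and Ddx18 (0.62). The genes farthest from it were Nop10 (0.009), Heatr1 (0.08), Las1l (0.09), Brix1 (0.11) and Ftsj3 (0.13). The list also varied together without Mdn1, with a median r between its genes of 0.34 against 0.002 between 1050 genes taken at even steps through the table.

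Within groups, the relation depended on how Mdn1 was measured. After each tumour was expressed as its difference from the mean of its group, the median r of the 48 genes with Mdn1 was 0.02, against 0.01 over all genes. Without the length correction it was 0.26 against 0.02, with 30 of 48 above 0, and with the TPM of Mdn1-201 in place of the gene it was 0.55 against 0.38, with 41 of 48 above 0. With the length correction, the mean of the 48 genes correlated with Mdn1 at r = 0.65 over 12 tumours and at 0.08 within groups. By tumour, that mean stood 0.10, 0.17 and 0.008 log2 units above its overall mean in ctrl tumours 1, 2 and 3, and at -0.16, -0.11 and 0.008 with miR-142-5p. It stood at -0.03, -0.15 and 0.04 with miR-183-5p and at -0.03, 0.11 and 0.05 with miR-222-3p. Mdn1 was at 0.17, 0.22 and 0.40 in the ctrl tumours and at -0.40, -0.42 and -0.17 with miR-142-5p. The ctrl tumour with the most Mdn1, tumour 3, was thus the ctrl tumour with the least of the 48 other genes, and miR-183-5p tumour 2 was low in the list at a level of Mdn1 near its mean. With the level of the full-length transcript Mdn1-201 in place of the gene, the median r of the 48 genes was 0.62 against 0.30 over all genes, on log2 TPM.

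**Figure D4:**
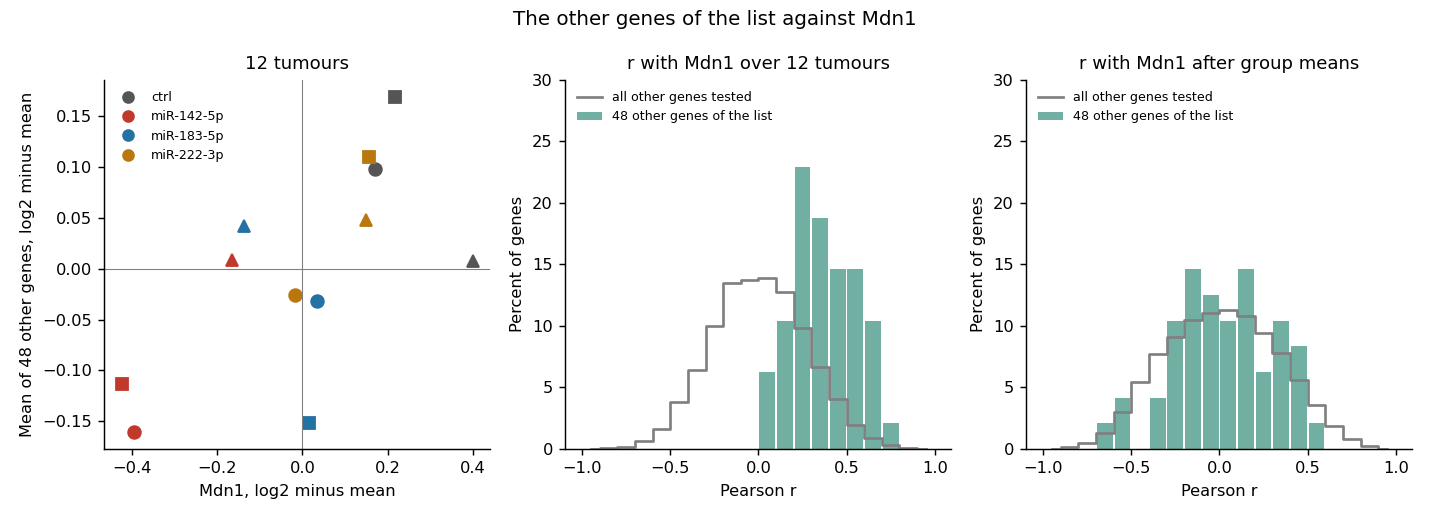
Left, Mdn1 (x axis) against the mean of the 48 other genes (y axis) in the 12 tumours, both as log2 differences from their means, coloured by group. Middle and right, the percentage of genes (y axis) by Pearson r with Mdn1 (x axis) for the 48 genes (bars) and all other genes tested (grey line), over 12 tumours and after removing group means. Mdn1 is the gene-level value with the length correction. The bars lie above 0 in the middle panel (median 0.36) and around 0 in the right one (median 0.02).

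The protein-coding genes most like Mdn1 over the 12 tumours, among those with a mean normalised count of at least 100, held none of the other 48 genes. They were Drosha (r = 0.93), which encodes the nuclear nuclease that releases miRNA hairpins, then Bend3 (0.88), Slc39a10 (0.84), Orc2 (0.84), Cnot10 (0.82), Lars (0.79), Dnajc24 (0.78), Pitrm1 (0.78), Ttc37 (0.78) and Spg20 (0.78). Within groups, r with Mdn1 was 0.74 for Drosha and 0.74 for Dnajc24, and between 0.13 and 0.67 for the 8 others.

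Genes of the same pathway outside the list were counted in the same way. Of 123 further ribosome biogenesis genes that passed the count filter (of 124 listed), 99, 82 and 80 were below 0 for the 3 mimics (medians -0.08, -0.04 and -0.04), and 0 passed the adjusted threshold in any of the 3 contrasts. Of all genes tested, 51.2%, 52.7% and 52.0% were below 0 for the 3 mimics. At an unadjusted p under 0.05, 5, 3 and 3 of the 123 were lower and 0 higher. These shares of 4.07%, 2.44% and 2.44% were near the 3.56%, 3.22% and 2.29% of all genes in either direction. By group, the median for miR-142-5p was -0.07 in 37 small-subunit factors, -0.08 in 40 large-subunit factors, -0.11 in 11 snoRNP and snoRNP assembly genes, -0.13 in 13 of 14 genes of the RNA exosome, which trims the precursors, and -0.04 in 17 other RNA polymerase I genes. The median r with Mdn1 was 0.17 over the 123 genes.

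None of the genes tested upstream and downstream of the pathway passed the threshold. Myc, the transcription factor that drives many of these genes, had log2 fold changes of -0.02, -0.14 and 0.18 (SE 0.18 each) for the 3 mimics, and r with Mdn1 was 0.12. Over 10 genes of the Myc network the medians were 0.02, 0.11 and 0.06, and 0 passed the test. Rpl5 and Rpl11, the ribosomal proteins that link stalled assembly to p53, had -0.01 (SE 0.14) and 0.01 (SE 0.12) for miR-142-5p, and the p53 target Cdkn1a had -0.28 (SE 0.23). Over 10 proliferation genes the medians were -0.06, 0.17 and -0.19, and Mki67, a marker of dividing cells, had 0.11 (SE 0.22) for miR-142-5p. Markers of some other cell types differed from ctrl. Over all genes, 3.56%, 3.22% and 2.29% had an unadjusted p under 0.05 for the 3 mimics, in either direction. Against ctrl, the 7 macrophage markers had a median log2 fold change of -0.44 with miR-183-5p (2 lower at an unadjusted p under 0.05), and the 6 neutrophil markers 0.52 (2 higher). The 5 erythroid markers had a median of -0.83 with miR-222-3p (5 lower at an unadjusted p under 0.05), with sums of 150.5 to 272 TPM against 361 to 450 TPM in ctrl tumours, and the 6 fibroblast markers had 0.63 with miR-183-5p and 0.53 with miR-222-3p. The 7 T cell markers had a median of 1.05 with miR-142-5p (3 higher at an unadjusted p under 0.05). The 5 skeletal muscle markers tested had 3.84 with miR-183-5p (3 higher). Their sums stood out in miR-142-5p tumour 3 (270 TPM) and in miR-183-5p tumour 3 (344 TPM) alone. With DESeq2, none of these markers passed the adjusted threshold. The summed markers of 10 cell types correlated with the mean of the 48 genes at between -0.36 (erythroid) and 0.39 (adipocyte) over the 12 tumours, and their part in the results was not tested.

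Promoters of the list were searched for a motif. Because Myc binds the E-box CACGTG, a palindrome that reads the same on both strands, its 6 letters were searched in RefSeq windows from 250 bases before to 50 bases after each start (GRCm38.p6). Windows were found for 43 of the 49 genes, and 9 of the 43 held the motif (20.9%), against 8.09% of 27025 genes. The 27025 were all genes with a window and were not limited to the genes tested here. The 9 were Mdn1, Mybbp1a, Nle1, Nop2, Pes1, Tsr1, Utp20, Utp4 and Wdr43. Wdr12 and Wdr75, with log2 fold changes of -0.37 and -0.33 in miR-142-5p tumours, held no motif in their windows. Pes1 and Nle1, which held it, stood at -0.05 and -0.10. Whether the motif goes with the difference from ctrl was not tested. The windows of Mdn1 and of Utp20, the genes farthest below ctrl in miR-142-5p tumours, are shown with the motif in capitals.
Mdn1 (chr4:32656869-32657168, plus strand): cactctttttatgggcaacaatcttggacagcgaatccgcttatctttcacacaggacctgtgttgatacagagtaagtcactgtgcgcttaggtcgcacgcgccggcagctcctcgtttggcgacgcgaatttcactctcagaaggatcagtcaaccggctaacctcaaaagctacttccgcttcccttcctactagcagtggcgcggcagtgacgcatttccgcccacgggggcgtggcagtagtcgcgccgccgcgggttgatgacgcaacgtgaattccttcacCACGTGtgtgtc
Utp20 (chr10:88826765-88827064, minus strand): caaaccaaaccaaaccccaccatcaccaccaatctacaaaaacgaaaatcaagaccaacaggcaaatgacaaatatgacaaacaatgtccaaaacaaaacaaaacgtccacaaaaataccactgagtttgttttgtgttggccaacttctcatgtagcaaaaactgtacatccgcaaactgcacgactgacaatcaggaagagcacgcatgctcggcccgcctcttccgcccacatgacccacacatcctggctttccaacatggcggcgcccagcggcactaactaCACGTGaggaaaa
In both windows the motif lies near the downstream end. A match is a description of the window and not a bound site.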

How the data were processed

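Polyadenylated RNA of 12 tumours had been sequenced by the authors with a stranded kit. The deposited tables, 1 per tumour, gave for each mouse transcript the estimated count of reads from Salmon, the TPM and the effective length, on GRCm38. The Salmon version in the methods is not repeated in the labels, and the Ensembl release differed between sources. There were 0 sample columns without a label. Here 116710 of 118783 transcripts (98.3%) were assigned to 35944 genes, and estimated counts and TPM were summed per gene. The unassigned transcripts held at most 0.671% of a library's reads.

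Genes with at least 10 estimated counts in at least 3 libraries (15459) were fitted over all 12 libraries with the group as the only term in DESeq2 1.42.0 (R 4.3.3), on rounded counts with the mean effective length as an offset, and p-values were adjusted by Benjamini-Hochberg over all genes with a p (15413) at a threshold of 0.05. Adjusted p-values in the text are from this fit and two-sided. edgeR 4.0.16, limma 3.58.1 on log2(TPM + 1), other normalisation, filters and transcripts, a replicate block and leaving out each tumour were alternatives. The main DESeq2 fit was tested on simulated counts with 200 changed genes, whose changes were larger than those of the list. The alternatives were not tested in this way. Correlations used log2(normalised count + 1). Shares of reads carry 95% Wilson intervals, which cover counting error only. The labels do not say how tumours of 1 number relate, and p-values measure only the spread between these tumours. Groups followed the labels.

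The genes and lists were chosen with earlier results of these data known. Genes named in the text were Mdn1, its partners and the Rix1 and rixosome genes. They also included the 3 highest and 3 lowest log2 fold changes of the list in each contrast against ctrl, and any called gene. Added were the 5 highest and 5 lowest in level and in correlation with Mdn1, and the 10 genes most correlated with Mdn1. Myc, Mki67, Rpl5, Rpl11 and Cdkn1a were named too. Other genes given by name were picked after their values were seen.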

Additional observations from a re-analysis of the deposited data

How the results depend on the processing

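The call of Mdn1 in miR-142-5p against ctrl tumours depended on the processing. The number of the 49 genes called there was 1 and became 0 with no length offset, with coding transcripts only (with or without the offset, the latter chosen after seeing the data), with only the groups compared in the fit, with edgeR and with limma on log2 TPM, and it ranged from 0 to 1 when each tumour was left out (0 without ctrl tumour 1, 2 or 3 or miR-142-5p tumour 2). The log2 fold change of Mdn1 there was -0.43 with no length offset, -0.43 with coding transcripts only and -0.43 with both, and its sign against miR-183-5p tumours turned from -0.29 to 0.28, 0.35 and 0.34 in that order. The effective lengths that make up the offset are given with the transcripts of Mdn1. The median correlation of the 48 genes with Mdn1 (0.36) was 0.43 as Spearman's rho, 0.023 after group means were removed (0.26 without the offset and 0.55 with the full-length transcript on log2 TPM, both chosen after seeing the data), 0.50 on log2 TPM, 0.41 with coding transcripts only, 0.41 with no length offset (chosen after seeing the data), and 0.28 to 0.44 when each tumour was left out. Other causes of these changes were not tested.

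With the replicate number as a block, the log2 fold change of Mdn1 was -0.59 and 0 of the 49 genes were called. Same-numbered tumours deviated from their group means with a median correlation of -0.15, so the numbers were not taken as pairs. The median log2 fold change of the 48 genes ranged over left-out tumours from -0.23 to -0.14, from -0.19 to -0.09 and from -0.07 to -0.01 for the 3 mimics against ctrl. With 3 tumours per group, a single-gene standard error of 0.14 limits what could be resolved.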
